A study of Homo sapiens with 32 samples.

Results

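The genes described here are 48 human genes of the DNA replication machinery: the origin recognition complex, the licensing factors, the helicase and its activators, the replicative polymerases, the sliding clamp with its loader, the single-strand binding protein RPA and 2 enzymes of Okazaki fragment maturation. They were chosen as a list of names by their known role, with no threshold on a measured value, although earlier results of these data were known, and all 48 were found among the 19970 protein-coding genes of chromosomes 1 to 22 and X in GENCODE release 44. For each gene the summits of 4 deposited ChIP-seq lists within 500 bp of the 5′ end of its gene record were taken, with their score and their offset from that end, downstream counted as positive. A summit is the position of highest signal inside a called peak. The score is the value the authors deposited with it, a −log10 transformed significance (p or q, not stated which), so that a larger score marks a summit less likely under the peak caller's background. It grows with read depth, so scores were compared within a list only. To set lists side by side, the percentile of a gene among all protein-coding genes with a summit of the same list is given.

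ChIP-seq recovers the DNA bound by a protein with an antibody and sequences it. The study used HEK293T, a human embryonic kidney cell line, as a single clone (HEK_CloneZD29) in which ZNF143 carries a dTAG degron, a domain through which the small molecule dTAGV-1 sends the fused protein to the proteasome, and an HA epitope used for its recovery. Every group of the 32 samples, controls included, came from these tagged cells. Cells were left untreated or received 50 nM dTAGV-1 over 30 minutes, and both were sampled with antibodies against SP1, NRF1 and YY1 (4 samples per antibody and treatment), against the HA tag on ZNF143 (2 and 2), and in a mock precipitation (2 and 2). The deposited lists hold 1 set of summits per antibody with no value per sample, so no comparison of treated with untreated cells and no replicate error could be had from them. Shares of genes carry Wilson 95% intervals, which cover counting error only. Genes are not replicates and neighbours can share a summit, so no test was run.

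On those chromosomes the ZNF143 list held 16165 summits, the NRF1 list 39180, the YY1 list 106578 and the SP1 list 126181. Scores began just above 2 in each and reached 65042 (ZNF143), 40435 (NRF1), 32193 (YY1) and 17292 (SP1). The lists do not give the read depth of the samples, and a gene without a summit may have carried signal below the calling threshold.

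DNA replication starts where the origin recognition complex has marked DNA and where CDC6 and CDT1 have loaded the ring-shaped MCM helicase. The kinase CDC7 with its partner DBF4 then allows CDC45 and the GINS complex to join the ring and activate it. Primase and polymerase alpha start each strand, polymerases epsilon and delta extend them with the clamp PCNA, and FEN1 and LIG1 finish the lagging strand. Many of these genes are transcribed most at the entry into S phase, and E2F factors are the best known regulators at their promoters. ZNF143 is a zinc finger protein that binds near the starts of genes through a long sequence element. SP1 binds GC boxes, NRF1 binds a GC-rich palindrome, and YY1 binds a short element often found just downstream of transcription starts.

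Summits of all 4 factors were common at the replication genes. ZNF143 summits were found in 34 of the 48 genes, within 500 bp of the 5′ end (70.8%, interval 56.8 to 81.8), against 31.7% of all protein-coding genes. NRF1 summits were present at 40 (83.3%, interval 70.4 to 91.3; 48.3% of all genes), SP1 summits also at 40 (59.1% of all genes) and YY1 summits at 43 (89.6%, interval 77.8 to 95.5; 57.8% of all genes). At 33 genes (68.8%, interval 54.7 to 80.1) summits of all 4 lists were found together, against 28.1% of all genes, and 4 genes had none (8.33%, against 37.3% of all genes). None of these intervals reached the share of all genes. Genes whose promoters held the other 3 factors gave a nearer comparison for ZNF143. Of these, 33 of the 38 replication genes with SP1, NRF1 and YY1 summits also had a ZNF143 summit (86.8%), against 61.8% of the 9091 such genes overall.

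**Figure D1:**
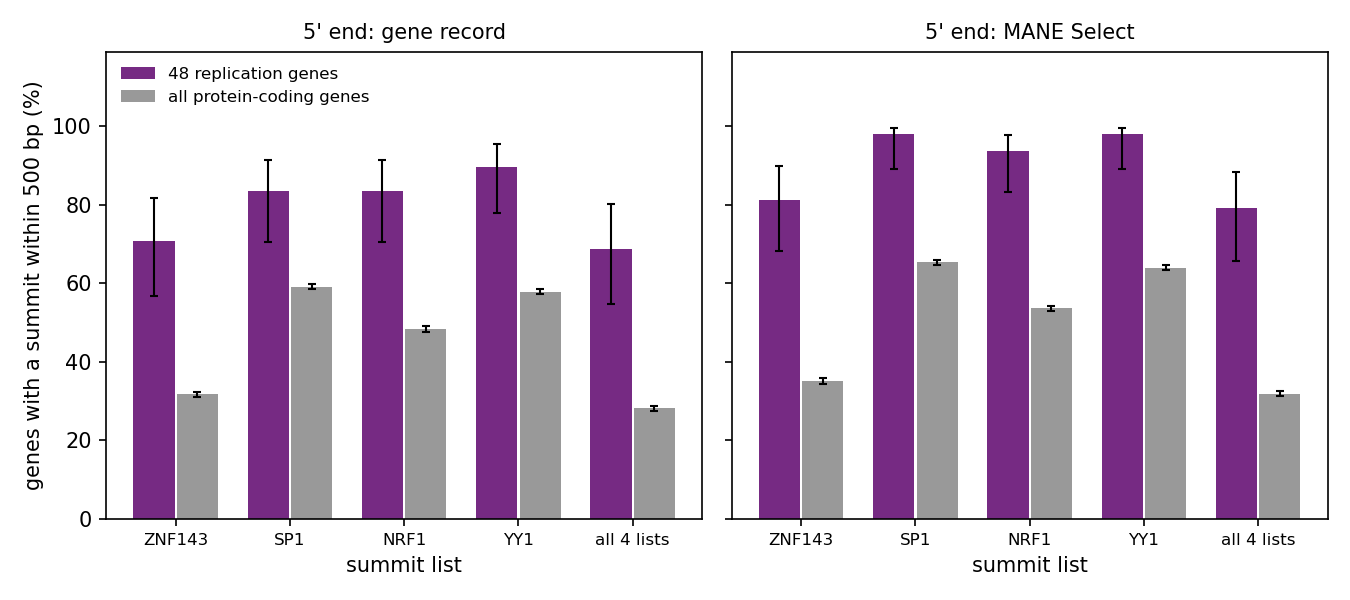
Share of genes with a summit within 500 bp (y axis, %) for each list and for all 4 together (x axis), at the 5′ end of the gene record (left) and at the start of the MANE Select transcript (right). Purple bars are the 48 replication genes, grey bars all protein-coding genes, and error bars Wilson 95% intervals; the purple bar stands above the grey one for every list in both panels.

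CpG-rich promoters are more often bound by all these factors, and replication genes are rich in them. The ratio of observed to expected CpG within 500 bp exceeded 0.6 at 40 of the 48 genes (83.3%) and at 60.1% of all genes, while the median GC content was 58.4% at replication genes and 59.2% at all genes. Among genes above that ratio, a comparison added after the data were seen, ZNF143 summits were present at 34 of 40 replication genes (85.0%, interval 70.9 to 92.9) and at 49.2% of all genes. NRF1 summits were present at 39 of 40 (97.5%) against 74.1%. SP1 summits were present at 37 of 40 (92.5%, interval 80.1 to 97.4) against 85.6%, and this interval includes the share of all genes. YY1 summits were at 40 of 40, with an interval from 91.2% upward, against 85.2%. None of the 8 replication genes at or below the ratio had a ZNF143 summit, against 5.22% of all such genes. Ratio and summits were both taken at gene record ends here. ORC4, GINS3 and RFC4, which are among these 8, had ZNF143 summits at their MANE Select starts. Those starts lay 867, 97391 and 576 bp downstream, and the scores there were 999, 6999 and 317. The share of CpG-rich promoters and the presence of summits moved together, and the part of the one in the other was not tested beyond this split.

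**Figure D2:**
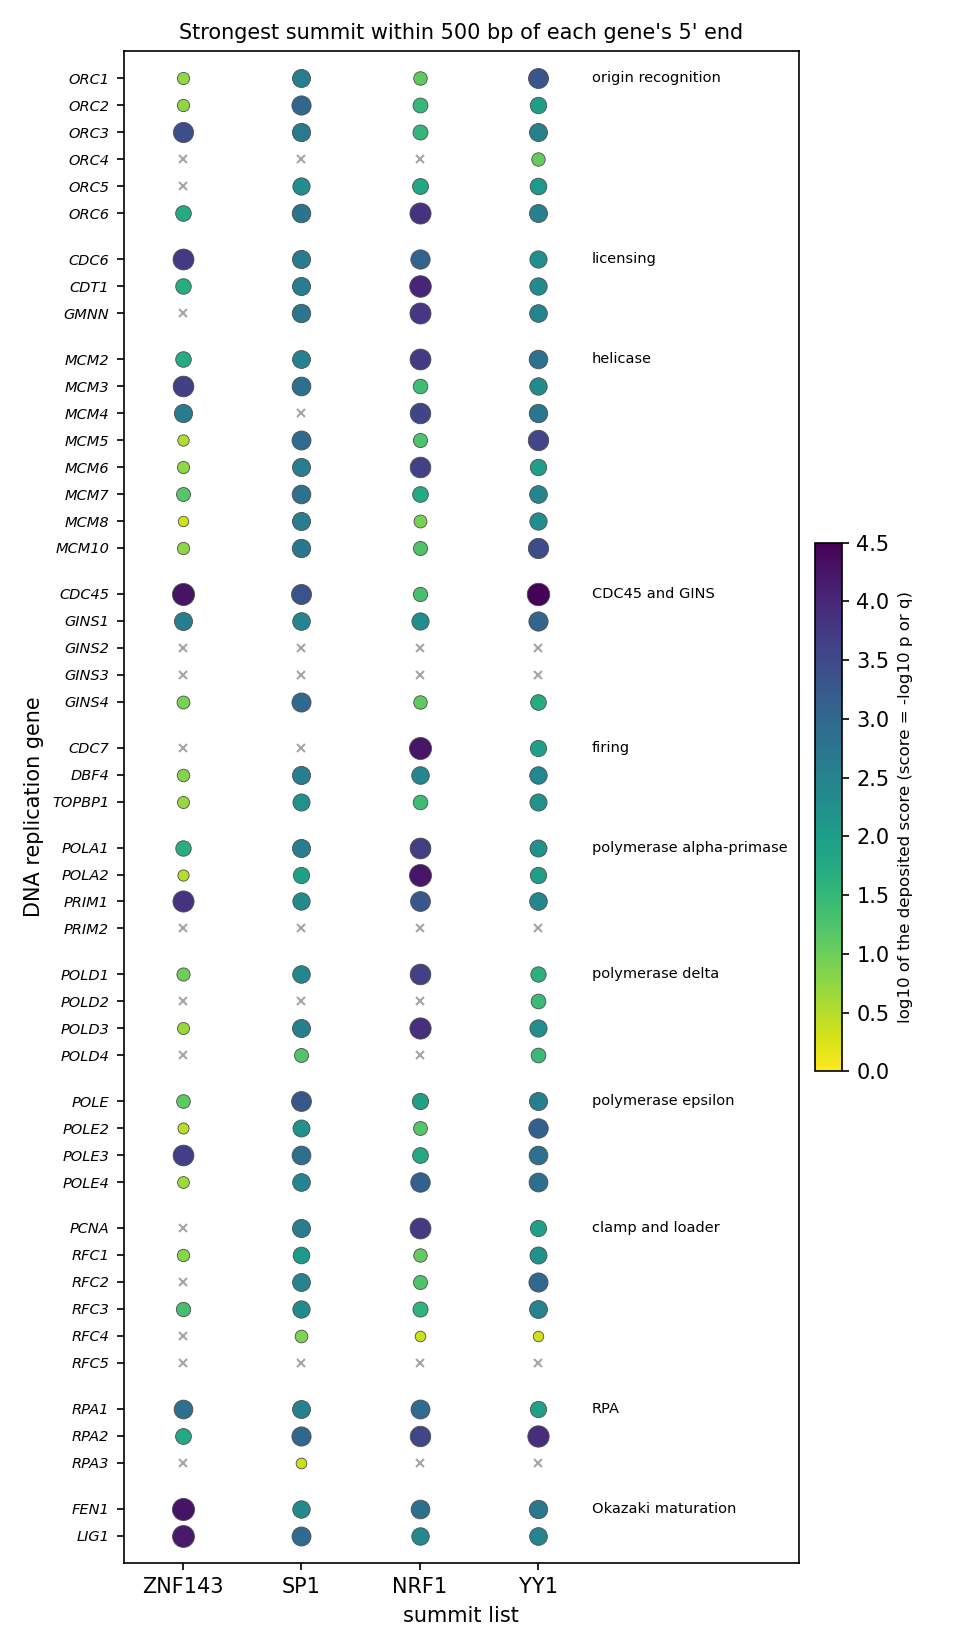
Each of the 48 genes (y axis, grouped by role) against the 4 lists (x axis). Circles mark the strongest summit within 500 bp, their size and colour the log10 of its score, and crosses the absence of a summit; the largest ZNF143 circles are at CDC45, FEN1 and LIG1, and the largest NRF1 circles at CDC7 and POLA2.

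The strength of ZNF143 summits was uneven. Scores above 1000 were found at 8 replication genes: CDC45 at 19389, FEN1 at 19070, LIG1 at 15535, PRIM1 at 7065, CDC6 at 5502, POLE3 at 4806, MCM3 at 4567 and ORC3 at 2593. RPA1 (719), MCM4 (429) and GINS1 (376) followed, and the other 23 genes with a summit scored from 2.11 at MCM8 to 62.2 at RPA2. The median was 19.2, against 23.6 over all genes with a ZNF143 summit, and 23.5% of the replication genes with a summit passed 1000, against 23.7% of all genes. The replication genes thus had ZNF143 summits more often, while the distribution of their scores was near that of all genes. CDC45 stood at the percentile 98.4 of all genes with a ZNF143 summit, FEN1 at 98.3 and LIG1 at 97.5.

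The sequence under the strongest summits was read from the hg38 reference. The word CCCANNATG, part of the ZNF143 element, was searched on both strands within 50 bp of each strongest summit and was found at only 2 replication genes of 34 (5.88%; 5.39% of all genes with a ZNF143 summit), CDC45 and the weak summit of DBF4 (6.80). A second part of the element, ACTACAANT, was chosen after the sequences at the strongest summits had been read, so its counts are a description only. It lay within 50 bp of the strongest ZNF143 summit of PRIM1 and MCM3 (5.88% of 34, against 5.14% of all genes with a summit), and of GINS3 at the start of its MANE Select transcript. Over all genes, the median ZNF143 score was 7255 with that word at the summit and 20.5 without it. The 4 stretches below are shown because they are the high-scoring replication genes in which either word was found; capitals mark the word, each is written 5′ to 3′ on the strand that carries it, and the one at GINS3 lies in an intron while the others lie upstream of the gene record.
CDC45 (chr22:19479439-19479468, plus strand): gactacactaCCCACAATGcactacccaga
PRIM1 (chr12:56752425-56752454, minus strand): gtgggaACTACAATTcccggcggccccggc
MCM3 (chr6:52285054-52285083, minus strand): gagaacACTACAACTcccagaacgcaatgc
GINS3 (chr16:58392870-58392899, minus strand): tcgaaaACTACAAATcccaaagggcagcgc
In CDC45 the centre of the word lay 31 bp from the summit, in PRIM1 10 bp, in MCM3 34 bp and in GINS3 38 bp. Neither word lay within 50 bp of the strongest summit at FEN1, LIG1, CDC6, POLE3 or ORC3. At FEN1 a copy of ACTACAANT lay within 500 bp of the 5′ end but not that near the summit. Other forms of the element were not searched.

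NRF1 scores were uneven as well. CDC7 had the highest at 18209 (percentile 99.5 of all genes with an NRF1 summit), followed by POLA2 at 17264, CDT1 at 10952, POLD3 at 7912 and ORC6 at 6824. The median over the 40 genes with a summit was 216, against 48 over all genes. Their median percentile was 65.3, and its 95% interval, 44.8 to 79.1, includes the 50 of all genes. At MANE Select starts the median percentile was 58.3. A score of at least 1000 was found at 16 of the 40 genes (40.0%), against 25.1% of all genes. CDC6, PRIM1 and 14 others made up these 16, and CDC6 (1195) and PRIM1 (1873) were the only 2 that also passed 1000 for ZNF143. The same overlap was not counted over all genes, so it does not show whether strong NRF1 and strong ZNF143 summits fall apart here. CDC45, the highest for ZNF143, SP1 and YY1 alike, had an NRF1 score of 21.0.

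NRF1 scores divided by the sequence of the promoter. The NRF1 word GCGCNTGCG was found within 500 bp of the 5′ end in 14 replication genes (29.2%, interval 18.2 to 43.2), against 14.3% of all genes. In the same 14 it lay within 50 bp of the strongest NRF1 summit (35.0% of 40, against 22.1% of all genes with an NRF1 summit). These 14 were ORC6, CDT1, GMNN, MCM2, MCM4, MCM6, CDC7, POLA1, POLA2, PRIM1, POLD1, POLD3, POLE4 and PCNA. Their scores ran from 1380 at POLE4 to 18209 at CDC7, with a median of 5479. Words and scores are given here for gene record ends only. At the MANE Select starts of POLD3, PCNA and MCM4 the NRF1 scores were 11.2, 270 and 99.2. The POLD3 summit is also the strongest of its neighbour LIPT2, 368 bp downstream of the LIPT2 5′ end. The 26 genes with a summit and no word there ran from 2.32 at RFC4 to 3596 at RPA2, with a median of 32.9, and only RPA2 and CDC6 of these reached 1000. Over all genes the medians were 4322 with the word and 24.2 without. The 5 highest-scoring summits with the word are shown, with the word in capitals, each on the strand that carries it; that of CDC7 lies in the untranslated region of its MANE Select transcript and the others upstream of the gene.
CDC7 (chr1:91500845-91500874, minus strand): gtcgatcggatGCGCCTGCGcaacacttcc
POLA2 (chr11:65261813-65261842, minus strand): cgcggcccaggGCGCGTGCGcatcagcggg
CDT1 (chr16:88803661-88803690, plus strand): gcccaccagcGCGCATGCGcgccccgtccc
POLD3 (chr11:74493356-74493385, minus strand): cgtctcggcctGCGCTTGCGcatgcacgta
ORC6 (chr16:46689520-46689549, plus strand): cgctattgatGCGCATGCGcaaaaggaaga
The centre of the word lay from 1 bp (POLA2) to 33 bp (ORC6) from the summit.

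**Figure D3:**
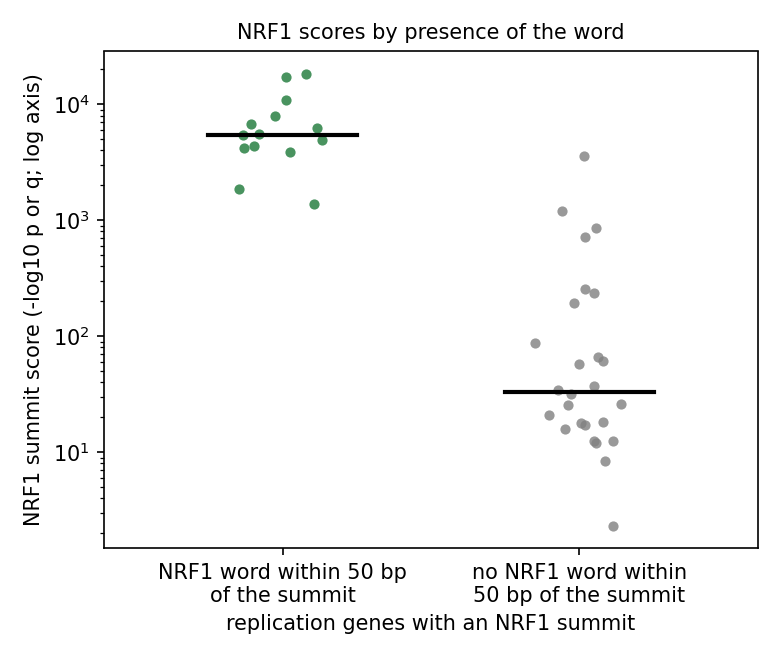
NRF1 score of the strongest summit (y axis, logarithmic) at replication genes with the NRF1 word within 50 bp of that summit (left, 14 genes) and without it (right, 26 genes); black bars are medians. All genes on the left lie at or above 1380, and 24 of the 26 on the right lie below 1000.

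In the full lists, median SP1 and YY1 scores were higher at replication genes than over all genes with a summit. The median SP1 score was 401 against 197, and the median percentile among all genes was 72.5. With the 16165 highest summits of each list alone, the median percentile was 51.1 for SP1 (interval 42.7 to 70.1) and 49.5 for YY1 (interval 38.7 to 66.8), against 50 for all genes. That cut is made on the score itself, so these percentiles cannot show whether the difference in score was lost. SP1 summits then remained at 34 replication genes (70.8%, against 32.7% of all genes). YY1 summits remained at 35 (72.9%, against 36.0% of all genes). The 5 highest SP1 scores were those of CDC45 (2237), POLE (1937), ORC2 (1094), RPA2 (1062) and GINS4 (969). The GC-box word GGGCGG lay within 50 bp of the strongest SP1 summit at 17 of 40 genes (42.5%), and at 43.4% of all genes with an SP1 summit, so replication genes did not stand apart in it. The median YY1 score was 237 against 139 over all genes. CDC45 had the highest YY1 score at 30141, above every other protein-coding gene whose strongest YY1 summit lacked the word AANATGGCG apart from its neighbour UFD1, which has the same summit. RPA2 (8648), MCM5 (3560), MCM10 (2957) and ORC1 (2158) followed. That YY1 word lay at the summit in only 2 replication genes of 43 (4.65%, against 6.56% of all genes with a summit). Both are shown: the word of MCM5 lies upstream of the gene and that of POLE2 in a coding exon.
MCM5 (chr22:35399877-35399906, minus strand): gggcggacgcaAAGATGGCGgaggggcggg
POLE2 (chr14:49688188-49688217, minus strand): gccaaatcgcaAATATGGCGccggagcggc
The YY1 score of MCM5 was 3560 and that of POLE2 was 1358.

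Summits of the 4 factors sat at different distances from the 5′ end. The median offset of the strongest summit was −35.5 bp for SP1 and −40.5 bp for NRF1, upstream of the end, −1.50 bp for ZNF143 and 83 bp downstream for YY1. The corresponding medians over all genes were −38.0 bp (SP1), −29.0 bp (NRF1), −19.0 bp (ZNF143) and 60.0 bp (YY1). SP1 summits lay upstream in 29 of 40 genes (72.5%), and YY1 summits downstream in 30 of 43. ZNF143 summits lay upstream in 17 genes and downstream in 17. They spread from −350 bp at POLD3 to 475 bp at DBF4, and the 95% interval of their median, from −111 to 63 bp, includes the median of all genes, as do those of the other 3 lists.

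**Figure D4:**
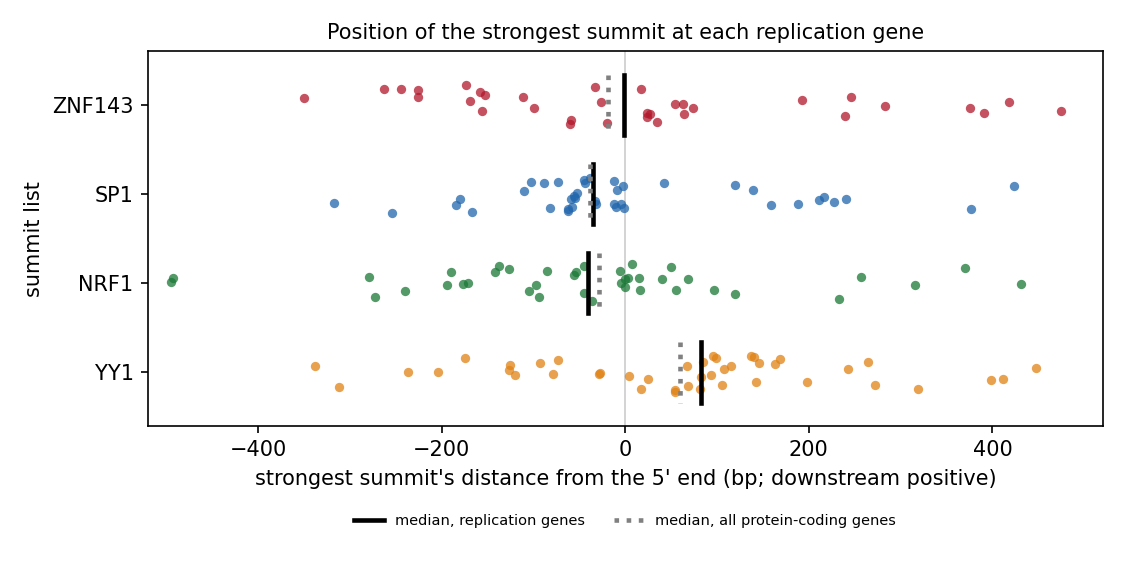
Distance of the strongest summit from the 5′ end (x axis, bp, downstream positive) for each list (y axis). Each point is a replication gene, jittered vertically; solid bars are their medians (−1.50 bp for ZNF143, −35.5 for SP1, −40.5 for NRF1, 83 for YY1) and dotted bars the medians of all protein-coding genes.

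Within 100 bp of the strongest ZNF143 summit, an NRF1 summit was present in 21 of 34 genes (61.8%, interval 45.0 to 76.1), against 46.8% of all genes with a ZNF143 summit. YY1 summits were there in 25 (73.5%, interval 56.9 to 85.4; 66% of all such genes) and SP1 summits in 21 (61.8%; 67.5% of all such genes). All 3 intervals include the share of all genes. With the same number of top summits taken from each list, the share for NRF1 was again 61.8%. All such genes then had 41.2%, which the interval does not include. In the other settings tried the interval did include the share of all such genes. These gave 32.4% against 27.3% within 50 bp and 91.2% against 77.9% within 250 bp. The top 50% of each list by score gave 68.4% against 50.6%.

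In the origin recognition complex, which marks origins, all 6 genes had a YY1 summit and 4 had a ZNF143 summit. ORC3 led for ZNF143 with 2593 at 24 bp, and ORC1 was lowest with 5.43 at −263 bp. ORC1, the subunit whose level changes most with the cell cycle, had a YY1 score of 2158 at −204 bp, the percentile 93.5 of its list. ORC2 reached the percentile 92.7 for SP1 (1094, at −59 bp) with a ZNF143 score of 5.61, and ORC6 the percentile 91.7 for NRF1 (6824, at −142 bp) with a ZNF143 score of 55.6. ORC3 stood at the percentile 82.2 for ZNF143. These 4 subunits had their highest percentiles in different lists, and how often other genes do so was not counted. ORC5 had no ZNF143 summit and stood near the middle of the other lists, with scores of 205 for SP1, 66.1 for NRF1 and 122 for YY1. At ORC4 the gene record end had only a YY1 summit of 11.7.

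Of the licensing factors, CDC6, which loads the helicase with CDT1, had a ZNF143 score of 5502 at −244 bp and CDT1 had 51.0 at 418 bp. GMNN, which encodes the inhibitor of CDT1, had no ZNF143 summit. All 3 had NRF1 scores above 1000: CDT1 10952, GMNN 6259 and CDC6 1195. Their SP1 scores were close to each other, from 414 at CDT1 to 561 at GMNN, and so were their YY1 scores, from 191 at CDC6 to 281 at GMNN.

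All 8 helicase genes had ZNF143, NRF1 and YY1 summits, and all but MCM4 had SP1 summits. MCM3 was highest for ZNF143 (4567, at −158 bp) and MCM8, a paralogue that acts in recombination, lowest (2.11). MCM4 scored 429 and MCM2 53.3, while MCM5, MCM6, MCM7 and MCM10 scored between 3.46 and 16.3. The 6 subunits of the loaded ring, which are needed in equal number, also differed in NRF1. MCM2, MCM4 and MCM6 had NRF1 scores of 5387, 3842 and 4341. MCM3, MCM5 and MCM7 had NRF1 scores of 25.8, 18.3 and 58.0. This division depends on the 5′ end taken for MCM4. At its MANE Select start, 756 bp downstream, the NRF1 score of MCM4 was 99.2. At the gene record ends, MCM5 had the highest YY1 score of the ring (3560) and the highest SP1 score (898). MCM10, which acts at helicase activation, had a YY1 score of 2957 and an NRF1 score of 18.

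CDC45, the helicase activator, lies on chromosome 22 with its 5′ end at 19479457. It was the highest replication gene for ZNF143 (at 27 bp), SP1 (at −9 bp) and YY1 (at 83 bp). From its MANE Select start, 463 bp downstream, the same summits lay at −436, −472 and −380 bp. GINS1, a partner of CDC45, had 376 for ZNF143, 1104 for YY1, 279 for SP1 and 195 for NRF1. GINS4 was lowest of the group for ZNF143 (8.36), with an SP1 score of 969. GINS2 and GINS3 had no summit at the end of the gene record.

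Among the genes for origin firing, CDC7 encodes the kinase and DBF4 its regulatory subunit. CDC7 had the highest NRF1 score of the 48 genes (18209, at 16 bp) and no ZNF143 or SP1 summit within 500 bp, whereas DBF4 had an NRF1 score of 257, an SP1 score of 400 and a ZNF143 score of 6.80. TOPBP1, a scaffold for firing and for checkpoint signalling, had all 4 lists, scoring 4.97 (ZNF143), 173 (SP1), 25.9 (NRF1) and 176 (YY1). CDC7 lay just outside the distance limit for the missing lists, with an SP1 summit of 511 at 523 bp and a ZNF143 summit of 24.7 at 531 bp.

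Polymerase alpha and primase had high NRF1 scores at 3 of 4 genes. POLA2 scored 17264, POLA1, the catalytic subunit, 4933 and PRIM1, the catalytic primase subunit, 1873 for NRF1. PRIM1 was the highest of the complex for ZNF143 (7065, at −60 bp) and POLA2 the lowest (3.18), with POLA1 at 47.6. PRIM2 had no summit at its gene record end. POLA1 is the only replication gene listed on chromosome X.

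Polymerase delta extends the lagging strand. Its catalytic subunit POLD1 had an NRF1 score of 4227 at 370 bp, and POLD3 had 7912 at −495 bp, the summit closest inside the distance limit. At the MANE Select start of POLD3, 98731 bp downstream, the NRF1 score was only 11.2. POLD1 scored 9.83 for ZNF143 and POLD3 scored 4.97, and the other 2 genes had none. POLD2 had only a YY1 summit of 28.6, and POLD4 an SP1 summit of 17.2 with a YY1 summit of 28.5. Polymerase epsilon, which extends the leading strand, had all 4 lists at all 4 genes. Its histone-fold subunit POLE3 had a ZNF143 score of 4806 at 54 bp, while POLE, the catalytic subunit, scored 13.8, POLE4 4.35 and POLE2 3.01. POLE came after CDC45 for SP1 (1937, percentile 97.2). POLE2 stood at the percentile 89.1 for YY1 (1358), POLE3 at 87.7 for ZNF143 and POLE4 at 83.8 for YY1 (778) and 77.1 for NRF1 (1380).

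The clamp and its loader had ZNF143 summits at 2 of 6 genes at the gene record end and at 4 of 6 at the MANE Select start. RFC3 scored 22.1 and RFC1 6.27, and PCNA, RFC2, RFC4 and RFC5 had none at the gene record end. PCNA, the clamp itself, had an NRF1 score of 5570 and an SP1 score of 406. RFC2 had a YY1 score of 1012. RFC4 had scores under 10 in each of its 3 lists (SP1 7.38, NRF1 2.32, YY1 2.14).

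The subunits of RPA, the single-strand binding protein, differed at their gene record ends. RPA2 came after CDC45 for YY1 (8648) and had 3596 for NRF1 and 1062 for SP1, with 62.2 for ZNF143. RPA1, the large subunit, had 719 for ZNF143, 865 for NRF1 and 347 for SP1. RPA3 had only an SP1 summit of 2.42 at that end. By the starts of its other protein-coding transcripts it had 1022 for ZNF143, 521 for SP1 and 624 for YY1. The 2 genes of Okazaki fragment maturation were both among the 3 strongest for ZNF143. FEN1, the flap endonuclease, on chromosome 11 with its 5′ end at 61792911, had its summit at −156 bp, and LIG1, the ligase that seals the nicks, on chromosome 19 with its end at 48170603, at 35 bp. FEN1 scored 229 for SP1, 714 for NRF1 and 528 for YY1, and LIG1 scored 885, 237 and 293.

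Most of these absences were filled when another 5′ end of the gene was taken. The gene record ends at its most upstream transcript, while MANE Select names 1 representative transcript per gene. Both ends coincided at 11 replication genes, lay over 500 bp apart at 13 and over 1000 bp apart at 8. At the MANE Select start, ZNF143 summits were present at 39 genes (81.2%; 35.1% of all genes), SP1 at 47 (97.9%; 65.3%), NRF1 at 45 (93.8%; 53.5%) and YY1 at 47 (97.9%; 63.9%). All 4 lists were present at 38 (79.2%; 31.9% of all genes), and no replication gene lacked summits altogether. By this choice 8 genes had more lists and none had fewer, although RFC4 exchanged its NRF1 summit for one of ZNF143.

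GINS3 changed most. Its gene record begins 97391 bp upstream of the MANE Select start, at which it scored 6999 (ZNF143), 364 (SP1), 110 (NRF1) and 603 (YY1). ORC4 gained a ZNF143 summit of 999 and an NRF1 summit of 1001 at a start 867 bp downstream, and POLD2 gained ZNF143 (239), SP1 (528) and NRF1 (75.3) summits at a start 810 bp downstream. GINS2 (start 1119 bp downstream), PRIM2 (2825 bp) and RFC5 (3115 bp) gained the other 3 lists and still had no ZNF143 summit. PRIM2 had an NRF1 score of 4703 there. MCM4 gained an SP1 summit of 1902, while its NRF1 score was 99.2 there, against 3842 at the gene record end. PCNA gained a ZNF143 summit of 39.5 and RFC4 one of 317. NRF1 scores were also much lower at the MANE Select starts of POLD3 and PCNA. For POLD3 the score was 11.2 at a start 98731 bp downstream, against 7912 at the gene record end. For PCNA it was 270 at a start 6668 bp downstream, against 5570. RPA3 kept the same end under both choices, and its summits of 1022 for ZNF143, 521 for SP1 and 624 for YY1 lay by the starts of other protein-coding transcripts, 77791 to 78581 bp downstream. With all protein-coding transcripts considered, 41 genes had a ZNF143 summit, and the 7 without were ORC5, GMNN, GINS2, PRIM2, POLD4, RFC2 and RFC5.

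Taking the nearest summit of each list at each gene, the 2 closest inside the 500-bp limit were those of NRF1 at POLD3 (495 bp) and of ZNF143 at DBF4 (475 bp). Just outside lay the SP1 (523 bp) and ZNF143 (531 bp) summits of CDC7 and the NRF1 summit of ORC4 (562 bp). No peak number missing from a list fell between the summits that flank a replication gene's 5′ end, so no removed peak is recorded there.

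At the gene record end, many replication genes lay head to head with another gene. At 14 of the 48 (29.2%, interval 18.2 to 43.2) the 5′ end of a gene on the opposite strand lay head to head within 1000 bp, against 8.56% of all genes. The pairs were ORC1 with PRPF38A, ORC3 with RARS2, ORC6 with VPS35, MCM2 with TPRA1, MCM4 with PRKDC, MCM8 with TRMT6, CDC45 with UFD1, GINS1 with ABHD12, GINS3 with PRSS54, POLD3 with LIPT2, POLE with PXMP2, PCNA with CDS2, FEN1 with TMEM258 and LIG1 with ZSWIM9. In all 12 pairs with a ZNF143 summit at the replication gene, the same summit was also the strongest at its neighbour. The ZNF143 scores of CDC45, FEN1, LIG1, ORC3, MCM4 and GINS1 thus belong as much to UFD1, TMEM258, ZSWIM9, RARS2, PRKDC and ABHD12. The strongest SP1, NRF1 and YY1 summits of these pairs were shared in the same way, except for YY1 at PCNA and CDS2. The YY1 score of ORC1, the NRF1 scores of ORC6, MCM2 and POLD3 and the SP1 score of POLE are likewise shared. UFD1 begins 255 bp from CDC45, TMEM258 109 bp from FEN1 and ZSWIM9 77 bp from LIG1. All pairs rest on gene record ends. The MANE Select starts of PCNA, GINS1, GINS3 and POLD3 lie 6668, 16665, 97391 and 98731 bp downstream of those ends. Those of CDC45 and MCM4 lie 463 and 756 bp downstream. At its MANE Select start GINS1 had a ZNF143 score of 14.3, against 376 at the gene record end. The median ZNF143 score was 216 in the head-to-head genes and 9.09 in the other 22 with a summit. Over all genes it was 44.2 head to head and 20.8 otherwise. Head-to-head genes also had ZNF143 summits more often over all genes, at 68.1% against 28.2%, and at replication genes in 12 of 14 against 22 of 34.

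E2F sites are the classical elements of replication gene promoters, and no E2F factor was among the proteins precipitated here. The words TTTGGCGC, TTTCCCGC, TTTCGCGC and TTTGCCGC were searched on both strands within 500 bp of each 5′ end. At least 1 was present in 23 of the 48 genes (47.9%, interval 34.5 to 61.7), against 9.69% of all protein-coding genes. Where words on opposite strands overlap they were merged, which gave 28 sites, 21 of them within 200 bp of the 5′ end. All 3 licensing genes and all 3 firing genes had a word, as did 6 of the 8 helicase genes (MCM2, MCM3, MCM5, MCM6, MCM7 and MCM8) and 3 of the 4 polymerase epsilon genes. None of CDC45 and the 4 GINS genes had one, and of the origin recognition genes only ORC3 did. These counts by role are for gene record ends only. Those of GINS1, GINS2 and GINS3 lie 16665, 1119 and 97391 bp upstream of their MANE Select starts. At MANE Select starts 26 of the 48 genes had a word (54.2%, against 10.6% of all genes). At 4 of the sites (MCM2, MCM5 and both sites of MCM6) words on both strands overlap. The windows of MCM5 and MCM6 show that paired form, and those of CDC6 and MCM3 a single word near the 5′ end. Capitals mark the word on the strand printed.
MCM5 (chr22:35399930-35399959, plus strand): ccagccagaagTTTCGCGCcaaattgttcc
MCM6, site nearer the gene (chr2:135876511-135876540, plus strand): ggagctggagaTTTCGCGCcaaacctgacc
MCM6, site further upstream (chr2:135876573-135876602, plus strand): acggaaagggaTTTCGCGCcaaatgcaaag
CDC6 (chr17:40287875-40287904, plus strand): ggccattcggaTTTGGCGCgagcgcggctg
MCM3 (chr6:52284898-52284927, minus strand): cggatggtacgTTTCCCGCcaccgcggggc
The centre of the word lay 189 bp upstream of the 5′ end in MCM5, 83 and 145 bp upstream in MCM6, 11 bp downstream in CDC6, within the untranslated region of its MANE Select transcript, and 32 bp upstream in MCM3. A word in the sequence is a description and does not show that a factor was bound.

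**Figure D5:**
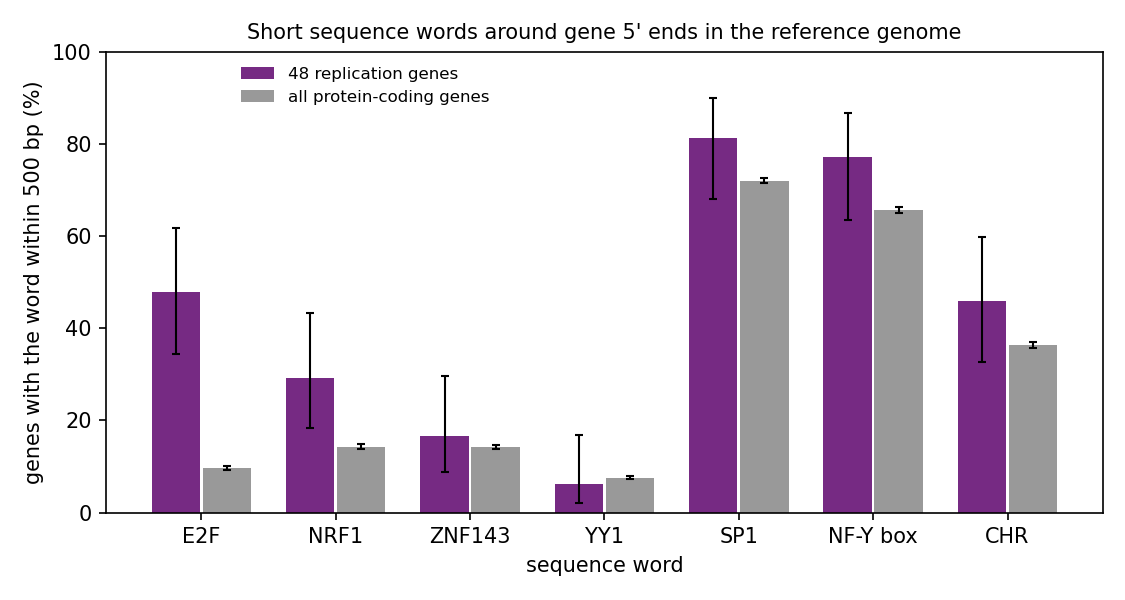
Share of genes with each sequence word within 500 bp of the gene record 5′ end (y axis, %) for the word sets searched (x axis). Purple bars are the 48 replication genes, grey bars all protein-coding genes, and error bars Wilson 95% intervals; the intervals of the E2F and NRF1 words lie above the grey bars, while those of the other 5 words include them.

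Other words did not stand apart from the background. The NF-Y box CCAAT was found at 37 replication genes (77.1%, against 65.7% of all genes), and TTTGAA, the cell cycle homology region at which MuvB complexes bind, at 22 (45.8%, interval 32.6 to 59.7, against 36.4%). The ZNF143 word CCCANNATG was within 500 bp of 8 (16.7% against 14.2%) and the YY1 word of 3 (6.25% against 7.54%).

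Away from gene starts, ZNF143 summits were rare in the replication genes. Further than 1000 bp from every protein-coding start, their gene bodies, 2561 kb in all, held 2 ZNF143 summits with scores of 6.27 (ORC4) and 5.13 (FEN1), 18 NRF1, 61 YY1 and 87 SP1 summits. Per 100 kb these were 0.0781 (ZNF143), 0.703 (NRF1), 2.38 (YY1) and 3.40 (SP1), each below the value over all genes (0.232, 0.837, 3.31 and 4.21). The share of genes with at least 1 such summit was lower than over all genes for ZNF143 (4.17% against 10.5%) and NRF1 (18.8% against 25%), and higher for SP1 (64.6% against 48.8%) and YY1 (58.3% against 47.4%). The ZNF143 share rests on 2 genes. No interval was taken for these shares or densities, so counting error may account for their differences from all genes, which were not tested. Among the highest were an NRF1 summit of 180 in an intron of RFC3 and an SP1 summit of 96.8 in an intron of GINS3.

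A list of 34 further genes of forks and origins and one of 11 genes of deoxynucleotide supply were set beside the 48. Of the 34, 25 had a ZNF143 summit (73.5%, interval 56.9 to 85.4), 33 an SP1, 32 an NRF1 and 34 a YY1 summit, and 24 had all 4 lists (70.6%). Their median ZNF143 score was 15.5. Of the 11, 6 had a ZNF143 summit (54.5%, interval 28.0 to 78.7) and 10 a summit of each of the other lists. E2F words were present at 8 of the 34 (23.5%, interval 12.4 to 40.0) and at 3 of the 11 (27.3%), both below the 47.9% of the 48 genes, with wide intervals. At the MANE Select start, 23 of the 34 had a ZNF143 summit (67.6%, interval 50.8 to 80.9), against 81.2% of the 48 genes. The shares of the lists were not tested against each other, and their order depended on the 5′ end taken.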

How the data were processed

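The authors deposited 1 list of summits per antibody. Column 5 of each deposited list was read, from its values and layout, as a −log10 value of significance (p or q). Per the submitters' processing notes, cutadapt, Bowtie2, SAMtools 1.16.1, MACS3 and bedtools were used with the hg38 build. Their settings, and the samples behind the NRF1 and YY1 lists, are not given in the sources used here.

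All positions lay within hg38 chromosomes. The strongest summit within 500 bp of the GENCODE release 44 gene record 5′ end gave score and offset. Percentiles are among all protein-coding genes with a summit of that list. Words had to match exactly, wholly within 50 bp of a summit or 500 bp of a 5′ end. Calls were tested on simulated summits of known position. Python 3 with pysam, numpy and scipy was used.

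Named genes were the 5 highest per list, those lacking a list, those nearest the distance limit, head-to-head genes, and the highest and lowest for ZNF143 in each role. Windows of 30 bases were printed. The genes, lists, words and comparisons were chosen with earlier results of these data known. The word ACTACAANT and the split by CpG ratio were added after the data were seen.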

Additional observations from a re-analysis of the deposited data

How the results depend on the processing

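Alternatives were tried for 17 results, and 31 of 113 values moved beyond the 95% interval of the value first given; no median offset changed side beyond its interval. Within 250 bp, ZNF143 summits were at 56.2% of replication genes (26.1% of all genes). YY1 was then at 77.1% (48.5%) and all 4 lists at 47.9% (18.9%). Within 1000 bp SP1 summits were at 91.7% (63.5%). With the MANE Select start, SP1 was at 97.9% (65.3% of all genes), NRF1 at 93.8% (53.5%) and YY1 at 97.9% (63.9%). The median offset there moved to −60.0 bp for SP1 and −98.0 bp for NRF1, against −73 and −65 bp for all genes. With any protein-coding transcript, ZNF143 was at 85.4% (37.6% of all genes), SP1 at 100% (67.5%), NRF1 at 97.9% (56.4%) and YY1 at 100% (66.2%). All 4 lists were at 85.4% (34.9%) and E2F words at 62.5% (14.1%). The top 50% of each list by score left ZNF143 at 39.6% (19.4% of all genes) and all 4 lists at 37.5% (16.3%). With the 16165 highest summits of each list, YY1 was at 72.9% (36.0% of all genes). The median percentile fell to 51.1 for SP1 and 49.5 for YY1, against 50 for all genes. Among CpG-rich promoters, ZNF143 was at 85.0% (49.2% of all such genes), SP1 at 92.5% (85.6%), NRF1 at 97.5% (74.1%) and YY1 at 100% (85.2%). All 4 lists were at 82.5% there (44.5%). Within 50 bp of the ZNF143 summit, SP1 was at 38.2% (48.3% of all such genes), NRF1 at 32.4% (27.3%) and YY1 at 44.1% (43.8%). Within 250 bp SP1 was at 94.1% (89.5%), NRF1 at 91.2% (77.9%) and YY1 at 94.1% (90.5%).

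In each of these settings except the percentiles, offsets and ZNF143 partners, the share at replication genes stayed above that of all genes. No paired analysis was possible because the lists hold no value per sample; for the same reason no replicate was left out. The lists give no depth, which limits what a missing summit shows.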
